A study of Mus musculus with 10 samples.

Results

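Compound **1** is a cyanobacterial keto fatty acid with an α,β-unsaturated carbonyl group. Its effect on LPS-stimulated cells of the mouse macrophage line RAW264.7 was compared here between the 2 higher concentrations, 32 and 10 µM, to ask which transcript responses still grew over this step and which had levelled off. The comparison used 4 of the 10 RNA-seq libraries, the 2 at 32 µM against the 2 at 10 µM, and covered all 14172 genes that passed the count filter. The remaining libraries were 2 each of **1** at 3.2 µM with LPS, solvent with LPS (DMSO + LPS) and solvent without LPS (DMSO). All cells received 0.5% DMSO or **1**, and LPS, the bacterial cell-wall lipid that activates macrophages through TLR4, was given at 1 µg/mL. Per the record deposited with the counts, the cells were exposed to **1** or solvent 1 h ahead of LPS, with RNA taken at 12 h. The labels number the libraries as biological replicates, but nothing says that they came from separate cultures on separate days, so p-values measure the spread between these libraries only.

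In macrophages, LPS switches on 2 broad programs. NF-κB drives cytokines and chemokines directly, and interferon-β, released by the stimulated cells, then drives the interferon-stimulated genes through a complex that holds STAT2 and IRF9. Nrf2 is a separate factor that is held back by Keap1, released when electrophiles modify Keap1 cysteines, and known for inducing antioxidant and detoxification enzymes. In bulk RNA, fewer cells expressing a gene and less RNA per cell cannot be told apart.

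The 4 libraries held between 45966803 and 49533803 counts, and all 12 macrophage markers were detected in every library. One library at each dose stood apart. Replicate 1 at 10 µM carried counts on markers of other cell types: 18 markers of epithelial, stromal, endothelial and other blood cells summed to 46.6 CPM (the usual depth-scaled count, here on TMM-scaled library totals), against 0.595 to 1.17 CPM in 8 libraries and 7.36 CPM in replicate 1 at 3.2 µM. In that library 77 genes had at least 10 counts and at most 1 in any other library. None of the 76 tested genes with over 80% of their CPM there was called below. Replicate 2 at 32 µM held 4.45% of its counts on ribosomal RNA features, against 0.117% to 0.336% in the other 9 libraries. Where leaving out either of these libraries moved a list's count of calls by 1.5 times or more, the count without it is given beside the list.

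Genes were called when they differed at least 1.5-fold between 32 and 10 µM with an adjusted p below 0.05 (edgeR's quasi-likelihood test on all 10 libraries, Benjamini-Hochberg over all genes tested). This gave 187 genes, 1.32% of those tested, of which 163 (1.15%) were lower at 32 than at 10 µM and 24 (0.169%) were higher. Over 2-fold, 57 were lower and 6 higher. The 2 libraries at one dose lay entirely above the 2 at the other for all 187, which was the case for 32.6% of all genes tested. The median log2 ratio over all genes tested was -0.01. The number depended on the libraries fitted and on the tool: a fit of the 4 compared libraries alone called 5 genes, all lower, whereas DESeq2 on the same 4 libraries called 172, and an exact permutation test of 2 against 2 libraries cannot go below p = 0.333. Without replicate 1 at 10 µM 155 genes were called and without replicate 2 at 32 µM 139, while the number higher at 32 µM went from 24 to 11 and 13. Leaving out both of these libraries leaves 1 library at each dose, with all spread taken from the other conditions, so calls from that fit are not counted here.

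Most genes called lower at 32 than at 10 µM were genes that LPS had raised. Of the 163, 157 (96.3%) were called higher in DMSO + LPS than in DMSO, against 14.6% of all genes tested, and the libraries behind that LPS comparison are not those of the dose comparison. In 145 of the 157 both libraries at 32 µM still lay above both unstimulated libraries, in 8 they lay below, and in 4 they overlapped. Since the 157 were chosen as raised by LPS, these counts are a description. The share over all LPS-raised genes was not taken. Of the 24 genes higher at 32 µM, 14 were called higher and 5 lower with LPS, against 13.6% of all genes tested called lower. For the 163 lower genes the median log2 step was -0.44 from 3.2 to 10 µM and -0.90 from 10 to 32 µM, a 3.2-fold concentration step in the latter case and 3.12-fold in the former. For the 24 higher genes the medians were 0.55 and 0.79. The earlier step had the same sign in 159 of the 163 and 23 of the 24, so both steps mostly ran in 1 direction. The second step was part of the choice of these genes, and both steps use the 10 µM libraries. Their sizes and signs are a description.

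**Figure D1:**
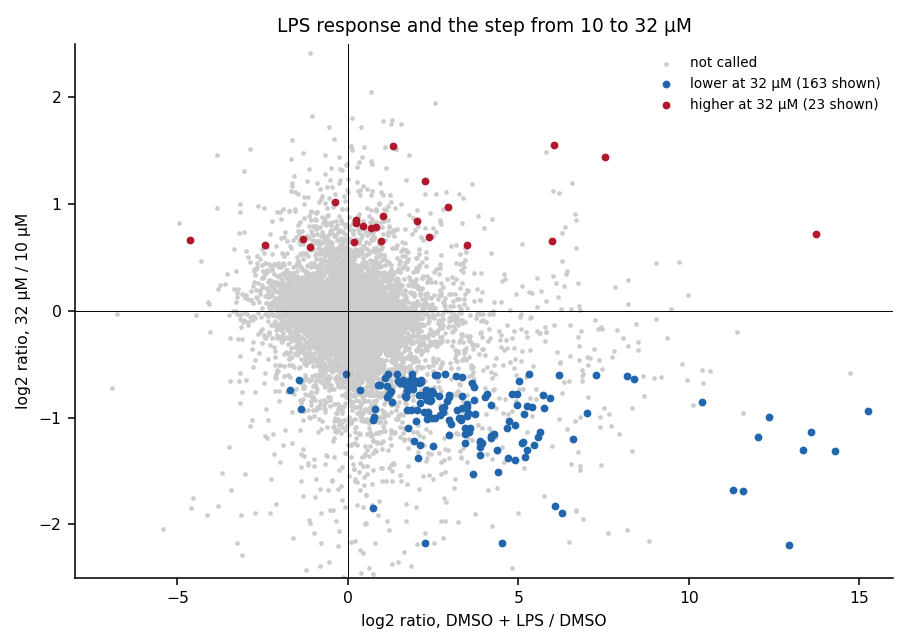
Each point is 1 tested gene, with the log2 ratio of DMSO + LPS to DMSO on the horizontal axis and the log2 ratio of 32 to 10 µM on the vertical axis. Blue points are the 163 genes called lower at 32 µM, most of them to the right of 0, red points are 23 of the 24 called higher (1 lies above the axis), and gray points beyond the axes are not shown.

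Interferon-stimulated genes fell together between 10 and 32 µM. Of 39 tested, 34 were called lower and none higher, and the median log2 ratio was -0.96. Of the other 5, Oas1a, Oas3, Rtp4 and Oas2 passed the adjusted p below the fold cutoff, and Ifi35 did not pass (log2 -0.73, adjusted p = 0.355). By edgeR on the 4 libraries alone, 2 of the 39 were called lower. Without replicate 1 at 10 µM or replicate 2 at 32 µM, 32 were called lower.

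Ifit1, which binds foreign RNA ends in infected cells (build GRCm38, chr19:34640871-34650009), stood at 383 and 371 CPM in DMSO + LPS. Its level was 343 and 363 CPM at 3.2 µM and 221 and 252 CPM at 10 µM, and the libraries with 32 µM held 87.1 and 94.7 CPM. The 2 dose groups were well apart, and the level at 32 µM was 2.60-fold lower than at 10 µM (log2 -1.38 ± 0.08 SE, adjusted p = 1.26e-04). Unstimulated cells held 14.9 and 13.9 CPM, so that 32 µM still left Ifit1 above the level without LPS.

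Isg15, a ubiquitin-like modifier, went from 367 and 305 CPM at 10 µM to 157 and 130.2 CPM at 32 µM, with 492 and 538 CPM in DMSO + LPS (log2 32/10 -1.23 ± 0.14, adjusted p = 0.00313). Zbp1, a sensor of Z-form nucleic acids, went from 86.1 and 78.8 CPM to 32.9 and 29.7 CPM (log2 -1.40, adjusted p = 7.11e-05). Mx2, of the dynamin-like antiviral GTPase family but annotated as a polymorphic pseudogene, went from 27.3 and 27.9 CPM to 11.0 and 10.7 CPM (log2 -1.35, adjusted p = 2.82e-05). Ifit3 went from 80.3 and 81.7 CPM to 34.0 and 34.7 CPM (log2 -1.24), and reads shared with its near-identical copy Ifit3b could be split between them. Transcription factors of this program were among the called genes too, with log2 ratios of -0.80 for Stat2 and -0.93 for Irf7.

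Ifnb1, the interferon-β ligand itself, was sparse, with 37 and 28 counts at 10 µM and 12 and 11 at 32 µM (0.795 and 0.620 and then 0.245 and 0.243 CPM). Its call (log2 -1.52 ± 0.30, adjusted p = 0.0413) was lost when any 1 of the 6 libraries at 32 µM, at 10 µM and in DMSO + LPS was left out. The oligoadenylate synthetases Oas2 and Oas3 and the receptor chaperone Rtp4 had smaller steps than most of the list. Rtp4 stood at 197 and 203 CPM at 10 µM and 136 and 144 CPM at 32 µM (log2 -0.52, adjusted p = 0.00104).

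Promoter sequence is shown for genes of these groups because the interferon-stimulated response element, searched on both strands as TTTC, any 2 bases and TTTC again, was common among the genes that fell. In RefSeq promoters of build GRCm38.p6, from 250 bases before to 50 after the start, the letters occurred in 40 of 120 promoters of lower genes (33.3%) and in 395 of 10066 promoters of tested genes (3.92%). Among called genes of the interferon-stimulated list they occurred in 16 of 25 (64.0%), among the other lower genes in 24 of 95 (25.3%), and among the genes higher at 32 µM in 0 of 20. Promoters were matched for 120 of the 163 lower genes. Capitals mark the matches on either strand, and each line runs 5′ to 3′ on the strand of the gene.
Ifit1, chr19:34640760-34640819, plus strand: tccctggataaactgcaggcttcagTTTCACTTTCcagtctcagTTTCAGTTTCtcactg
Ifit3, chr19:34583328-34583427, plus strand: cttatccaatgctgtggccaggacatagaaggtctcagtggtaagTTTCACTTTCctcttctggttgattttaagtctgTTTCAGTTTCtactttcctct
Isg15, chr4:156200857-156200926, minus strand: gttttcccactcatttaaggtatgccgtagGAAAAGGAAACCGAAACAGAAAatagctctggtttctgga
Among lower genes, the letters of the other 3 elements were not more frequent to this degree. The gamma-activated site TTCNNNGAA occurred in 12.5% of promoters of lower genes and 8.22% of all, and the κB site (GGG, any 2 bases, TTTCC) in 4.17% and 2.10%. A match of letters is a description and does not show binding.

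Cytokines, chemokines and inflammatory enzymes fell less uniformly. Of 38 tested, 18 were called lower and 1, Cxcl3, higher, with a median log2 ratio of -0.61. By edgeR on the 4 libraries alone, 3 of 35 tested were called lower and 0 higher. Without replicate 1 at 10 µM 12 were called lower, and without replicate 2 at 32 µM 11. In both of these cases Cxcl3 was no longer called higher.

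Ccl2, the monocyte-attracting chemokine (chr11:82035571-82037453), had the smallest p of all genes tested. It stood at 844 and 862 CPM in DMSO + LPS and at 906 and 879 CPM at 3.2 µM, measured 414 and 418 CPM at 10 µM, and was down to 162 and 160.3 CPM at 32 µM. The libraries of a group were close together, and the level was 2.59-fold lower at 32 than at 10 µM (log2 -1.37 ± 0.04, adjusted p = 1.37e-05). Unstimulated cells held 22.8 and 23.3 CPM. Ccl7, a neighboring chemokine of the same family, went from 22.1 and 23.9 CPM at 10 µM to 5.50 and 6.86 CPM at 32 µM (log2 -1.89 ± 0.11, adjusted p = 1.43e-04).

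The interleukin-1 genes were among the most abundant genes called lower. Il1b stood at 1529 and 1541 CPM in DMSO + LPS, 886 and 829 CPM at 10 µM and 479.8 and 471 CPM at 32 µM (log2 32/10 -0.85 ± 0.04, adjusted p = 8.12e-05). Il1a went from 227 and 219 CPM to 91.4 and 87.7 CPM (log2 -1.32 ± 0.05, adjusted p = 2.12e-05). For both, the levels at 3.2 µM (1492 and 1519 CPM for Il1b, 439.6 and 419 CPM for Il1a) were close to those of DMSO + LPS, so nearly the whole decrease lay above 3.2 µM.

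Nos2, the inducible nitric oxide synthase, stood at 209.6 and 202 CPM in DMSO + LPS, 144 and 150.0 CPM at 3.2 µM, 109 and 113 CPM at 10 µM and 44.8 and 45.6 CPM at 32 µM. The last step was 2.46-fold (log2 -1.30 ± 0.09, adjusted p = 2.20e-04). Thbs1, a secreted matrix glycoprotein that was on no list, had the lowest ratio under the naming rule, from 8.19 and 9.12 CPM at 10 µM to 1.94 and 1.84 CPM at 32 µM (log2 -2.19 ± 0.10, adjusted p = 1.27e-04). Il6, the acute-phase cytokine, went from 46.0 and 53.6 CPM to 23.2 and 28.9 CPM (log2 -0.94 ± 0.12, adjusted p = 0.00851). Mmp3, a secreted matrix protease, went from 2.49 and 2.77 CPM to 0.777 and 0.863 CPM (log2 -1.68, adjusted p = 0.00133). Il10, an anti-inflammatory cytokine, went from 9.50 and 9.31 CPM to 4.90 and 5.11 CPM (log2 -0.91, adjusted p = 0.0311), and this call was lost when any 1 of the 6 libraries at 32 µM, at 10 µM and in DMSO + LPS was left out.

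Tnf, Acod1, Ptgs2 and Ccl4 were not called. Tnf, the early NF-κB-driven cytokine, stood at 1396 and 1422 CPM in DMSO + LPS, 1440.2 and 1449 CPM at 10 µM and 1239.5 and 1263 CPM at 32 µM. The difference passed the adjusted p but was small (log2 -0.21 ± 0.04, adjusted p = 0.0227). Acod1, the enzyme that makes itaconate, stood at 3008 and 3036 CPM at 10 µM and 2794 and 2945 CPM at 32 µM, and the 95% interval of its 32/10 ratio ran from 0.897 to 1.01. Ptgs2, the inducible cyclooxygenase, stood at 4431 and 5473 CPM and 5329 and 6327 CPM, overlapping groups with an interval of 0.979 to 1.41. Ccl4 stood at 529 and 412 CPM and 336 and 256 CPM without passing (log2 -0.67, adjusted p = 0.0846), although 6 of 19 alternative settings called it lower. Ccl3, a close relative, was called at 1.52-fold lower (adjusted p = 0.00856) but not without replicate 1 at 10 µM or replicate 2 at 32 µM.

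Cxcl3, a neutrophil-attracting chemokine, ran against its group. It was listed at 0 in unstimulated cells and stood at 31.9 and 35.5 CPM in DMSO + LPS, 66.7 and 77.1 CPM at 10 µM and 110.3 and 127 CPM at 32 µM (log2 32/10 0.72 ± 0.10, adjusted p = 0.0133). Il6 and Cxcl3 moved in opposite directions, and both promoters hold the κB letters, shown in capitals for that reason.
Il6, chr5:30013045-30013104, plus strand: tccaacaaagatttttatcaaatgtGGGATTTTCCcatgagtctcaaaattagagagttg
Cxcl3, chr5:90786003-90786062, plus strand: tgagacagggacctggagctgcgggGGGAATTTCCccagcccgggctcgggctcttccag

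Genes for presenting antigen and for contact with lymphocytes gave fewer calls, in shorter lists. The shares called lower were 35.7% and 13.6%, against 47.4% of the cytokine list, differences that were not tested. Of 14 genes of MHC class I antigen processing, 5 were called lower and none higher, with a median log2 ratio of -0.48 and all 14 ratios below 0. The count rested partly on single libraries: it was 3 without replicate 2 at either dose and 4 without replicate 1 at either dose. By edgeR on the 4 libraries alone, 0 of the 14 were called. Tap1, which pumps peptides into the endoplasmic reticulum, went from 88.5 and 80.5 CPM at 10 µM to 46.3 and 42.7 CPM at 32 µM (log2 -0.93, adjusted p = 2.29e-04). Psmb9, an immunoproteasome subunit, went from 17.8 and 14.3 CPM to 8.83 and 7.28 CPM (1.99-fold, adjusted p = 0.0133), below the 14.9 and 12.0 CPM of unstimulated cells, and was not called without replicate 1 at 10 µM or replicate 2 at 32 µM. The class I heavy chain H2-D1 stood at 1357 and 1254 CPM and 1190.4 and 1131 CPM, with a 95% interval of 0.816 to 0.969 for the 32/10 ratio.

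Of 22 costimulatory and surface activation genes, Siglec1, Cd83 and Cd40 were called lower, and 2 genes were called without replicate 1 at 10 µM or without either library at 32 µM. Siglec1, a sialic acid receptor that is itself interferon-inducible, went from 35.5 and 35.9 CPM to 17.6 and 17.3 CPM (log2 -1.03, adjusted p = 1.25e-04), close to the 16.9 and 17.1 CPM of unstimulated cells. Cd274, the ligand PD-L1, stood at 151 and 154 CPM and 155 and 153 CPM, with an interval of 0.939 to 1.08. Of the 12 macrophage markers 1 was called, the Fcγ receptor Fcgr1, which went from 36.9 and 32.6 CPM to 18.6 and 15.5 CPM (log2 -1.03, adjusted p = 9.75e-04) and ended below the 34.2 and 32.7 CPM of unstimulated cells. The F4/80 gene Adgre1 stood at 219 and 211 CPM and 204 and 207 CPM (interval 0.888 to 1.03).

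**Figure D2:**
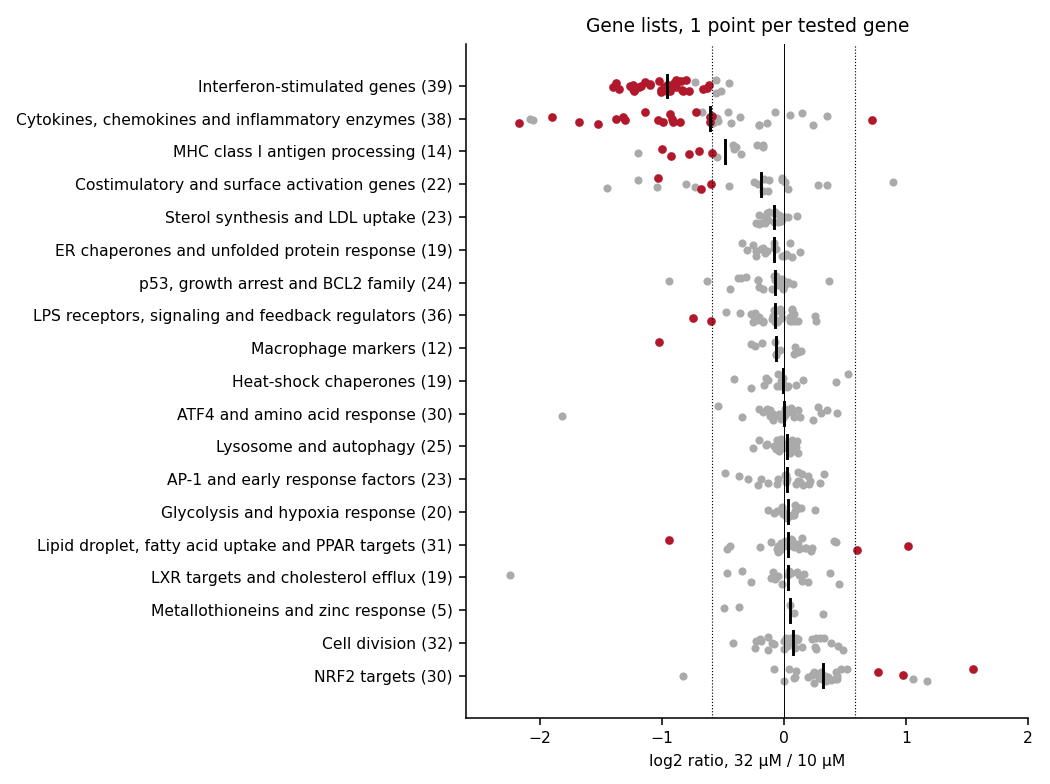
The log2 ratio of 32 to 10 µM is plotted for every tested gene of 19 lists, with the number tested in parentheses, called genes in red, other genes in gray, the list median as a black bar and the 1.5-fold bounds dotted. The interferon-stimulated list lies wholly below 0 with its median at -0.96 and the Nrf2 list has the highest median, 0.32. Egln3, of the glycolysis and hypoxia list, lies beyond the left edge at -6.72, not called.

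Of 30 Nrf2 targets tested, 28 had a log2 ratio above 0, 3 were called higher (Gsta1, Nqo1 and Osgin1), none lower, and 11 more passed the adjusted p below the fold cutoff. The other 16 did not pass. The list median was 0.32, against -0.01 over all genes tested. Over all 14172 genes tested, 6792 had a log2 ratio above 0, 0.169% were called higher and 90 more passed upward below the fold cutoff. The number called was 3 without replicate 1 at 10 µM, 2 without either library at 32 µM, 5 by the likelihood ratio test or with a covariate for each library's median level of genes with short transcripts (under 1000 nt), and 0 by edgeR on the 4 libraries alone.

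Nqo1, the quinone reductase used as the standard readout of Nrf2 (chr8:107388225-107403206), stood at 2.65 and 2.58 CPM in DMSO + LPS and 3.26 and 3.35 CPM at 3.2 µM. It reached 8.94 and 7.61 CPM at 10 µM and 16.3 and 16.1 CPM at 32 µM. The last step was 1.96-fold (log2 0.97 ± 0.10, adjusted p = 0.00222), smaller than the fitted log2 step of 1.32 from 3.2 to 10 µM. Osgin1, an oxidative stress-induced growth inhibitor, went from 23.6 and 21.7 CPM to 39.1 and 38.2 CPM (log2 0.77, adjusted p = 0.00194). The glutathione transferase Gsta1 went from 2.04 and 2.85 CPM to 7.07 and 7.26 CPM (log2 1.55 ± 0.25, adjusted p = 0.0163), and was not called when either library at 32 µM was left out. Gsta1 and Gsta2 are close copies, so the division of reads between them is uncertain, and Gsta2 did not pass (log2 1.06, adjusted p = 0.258).

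Among the targets that were not called, Prdx1, a peroxiredoxin, went from 7359 and 6724 CPM at 10 µM to 9651 and 9179 CPM at 32 µM (log2 0.42 ± 0.06, adjusted p = 0.00758). Gclm, the regulatory subunit for glutathione synthesis, went from 474 and 521 CPM to 637 and 706 CPM (log2 0.43 ± 0.07, adjusted p = 0.0176). Both groups of libraries were apart, yet both steps stayed under 1.5-fold. Hmox1, the heme oxygenase, stood at 1485 and 1354 CPM and 1735 and 1629 CPM and did not pass (log2 0.25 ± 0.05, adjusted p = 0.0719). Fth1, the ferritin heavy chain, stood at 8191 and 7040.1 CPM and 7923 and 7352 CPM, with an interval of 0.888 to 1.13. The antioxidant response element core TGACNNNGC occurred in 3 of 20 promoters of genes higher at 32 µM (15.0%), in 15.0% of those lower and in 17.0% of all tested. It occurred in 5 of 10 promoters of levelled genes (50.0%) and in 8 of 25 of called interferon-stimulated genes (32.0%), small sets that were not tested. It is shown for Prdx1 and Gclm, where the letters lie on the other strand.
Prdx1, chr4:116685441-116685499, plus strand: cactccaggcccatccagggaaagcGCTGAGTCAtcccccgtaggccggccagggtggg
Gclm, chr3:122245398-122245456, plus strand: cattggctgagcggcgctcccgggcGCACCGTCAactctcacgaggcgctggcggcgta

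Of 31 lipid genes tested, 2 were called higher at 32 µM (Plin2 and Cpt1a) and 1 lower (Fabp4). Plin2, the lipid droplet coat protein (chr4:86648386-86670060), stood at 119.8 and 122 CPM in DMSO + LPS, 147 and 146 CPM at 3.2 µM, 234 and 229 CPM at 10 µM and 476 and 459 CPM at 32 µM. The last step was 2.02-fold (log2 1.02 ± 0.05, adjusted p = 7.11e-05), and unstimulated cells held 161 and 151 CPM. Cpt1a, which admits fatty acids to mitochondria, had a log2 ratio of 0.60 (adjusted p = 4.50e-04). Fabp4, a fatty acid binding protein, went from 10.9 and 9.38 CPM to 5.99 and 4.53 CPM. The Fabp4 call was lost without replicate 1 at 10 µM, and the number of lipid genes called higher went from 2 to 1 without that library or replicate 2 at 32 µM.

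Adh7, an alcohol dehydrogenase, went from 52.8 and 59.2 CPM at 10 µM to 129.6 and 130.0 CPM at 32 µM (log2 1.21 ± 0.06, adjusted p = 8.12e-05). Pcx, the mitochondrial pyruvate carboxylase, went from 28.5 and 26.5 CPM to 50.2 and 48.8 CPM (log2 0.85, adjusted p = 5.47e-04). Ass1, which makes argininosuccinate in the arginine cycle, went from 14.6 and 13.4 CPM to 25.9 and 24.2 CPM (log2 0.84, adjusted p = 0.00321). Sstr5, a somatostatin receptor, had the highest ratio among called genes with a mean of at least 5 CPM, 2.39 and 2.79 CPM against 7.30 and 7.81 CPM (log2 1.54 ± 0.26, adjusted p = 0.0204), and was not called when replicate 1 at 10 µM or either library at 32 µM was left out. The highest ratio of any called gene belonged to 2810030D12Rik, a noncoding RNA named after its values were seen, with 0 counts in both libraries at 10 µM and 11 and 8 at 32 µM, too few for a fold.

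**Figure D3:**
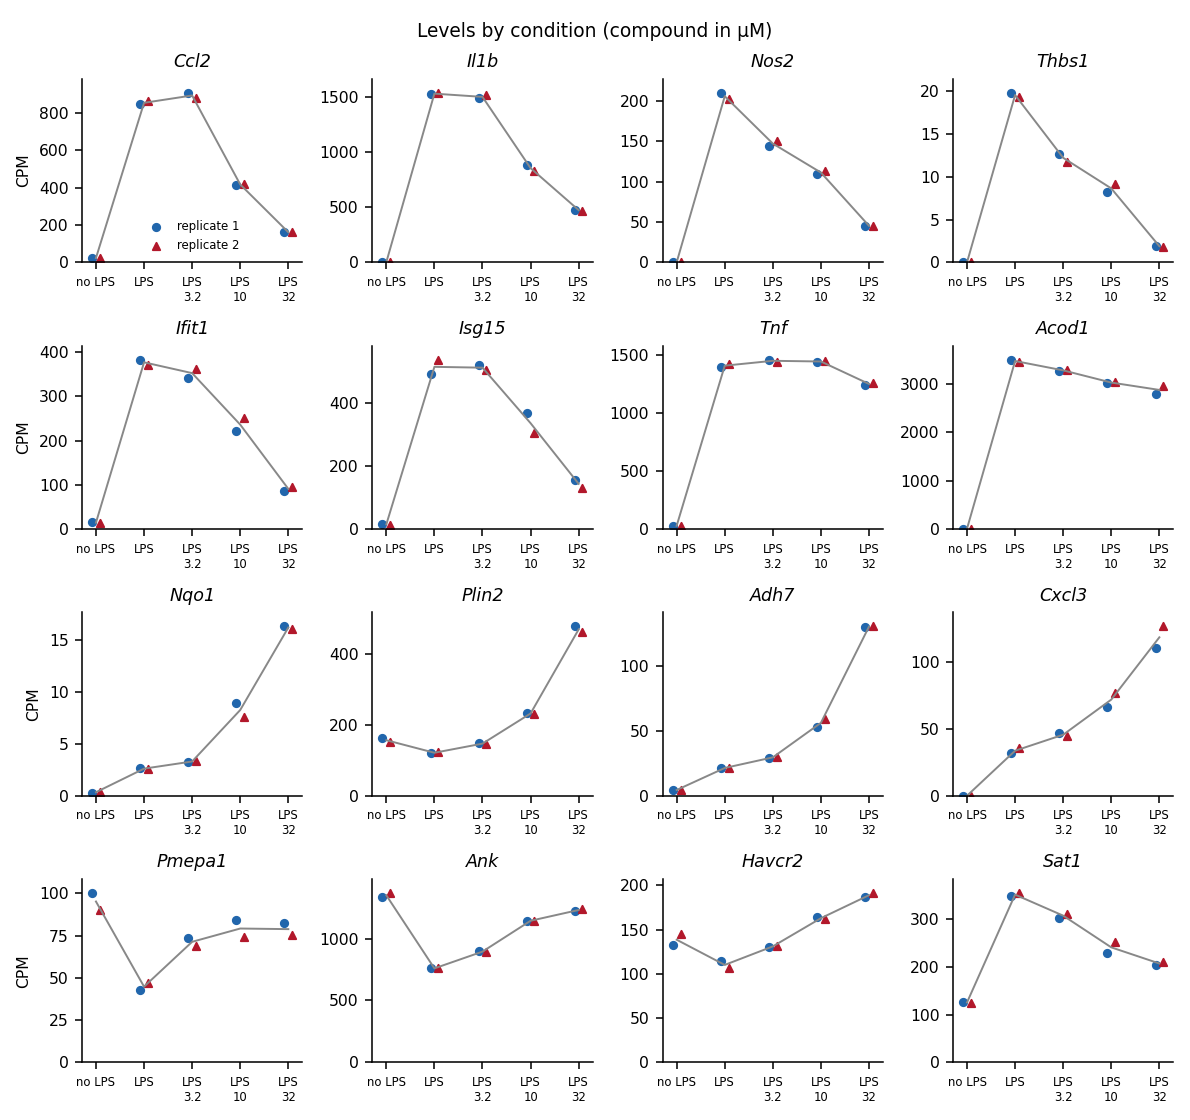
Levels in CPM are plotted on linear axes from 0 for 16 genes in the 10 libraries, with circles for replicate 1, triangles for replicate 2 and a gray line through the group means, ordered from unstimulated cells through LPS alone to LPS with rising **1** (3.2, 10 and 32 µM). Ccl2, Il1b, Nos2, Thbs1, Ifit1 and Isg15 keep falling to 32 µM, Nqo1, Plin2, Adh7 and Cxcl3 keep rising, and Pmepa1 and Ank change little after 10 µM.

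To ask which responses had levelled off, responding genes were chosen by the mean of both doses against DMSO + LPS, using the same fold and adjusted p cutoffs. With 2 libraries each this contrast is orthogonal to the 32/10 difference, so the choice did not favor either sign of the step, though the fit shares its spread estimate. It gave 394 genes (2.78% of those tested), 114 higher and 280 lower than in DMSO + LPS. Of these, 172 were called in the same direction between 10 and 32 µM and count as growing (21 higher and 151 lower), and 0 were called in the opposite direction. A gene counted as levelled off when the 95% interval of its 32/10 ratio lay within 1.3-fold either way, as it did for 50.0% of all genes tested. This held for 12 responding genes, 9 higher and 3 lower, and 210 were undecided, 48 of which passed the adjusted p below the fold cutoff. The number levelled depends on the bound, with 4 genes within 1.2-fold and 57 within 1.5-fold. The bound is log2 0.38 whatever the size of the response, against 0.58 at the entry cutoff. A small response could therefore meet it while still growing in proportion. Among levelled genes under the naming rule, mean log2 responses ran from 0.60 (Csf2rb2) to 0.82 (Pmepa1) in size. The median level was 77.6 CPM for levelled and 6.12 CPM for undecided genes, and 106 were undecided at a mean of at least 5 CPM. Without replicate 1 at 10 µM 11 higher genes were growing, and without replicate 2 at 32 µM 13 were growing and 7 genes in all had levelled off.

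The log2 response at 10 µM, as a share of that at 32 µM, had a median of 58.8% over the 114 higher genes and 42.6% over the 280 lower genes. Both figures share the DMSO + LPS libraries and are descriptions. The 12 levelled genes had a median of 81.0% and the 172 growing genes 39.6%, as their definition implies. The step of each growing gene was at least 1.5-fold by the same definition. As a direct comparison of the last 2 steps, the log2 step from 10 to 32 µM was tested against that from 3.2 to 10 µM in every gene, a test added after the data were seen. edgeR's quasi-likelihood test passed 0 genes after adjustment (lowest adjusted p = 0.125), 645 (4.55%) had an unadjusted p below 0.05, and edgeR's likelihood ratio test passed 15. The same quasi-likelihood test passed 8 genes without the count filter, 4 with the replicate number in the fit, 7 without replicate 2 at 10 µM, 1 without replicate 1 at 32 µM and 142 with the short-transcript covariate. Under the other settings run the count was also 0.

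Of the 9 levelled genes that were higher with **1**, 6 were called lower with LPS and none higher, as 40 of all 114 higher responding genes and 13.6% of all genes tested were called lower. The DMSO + LPS libraries enter both calls, so these counts are descriptions. Pmepa1, an inhibitor of TGF-β signaling (chr2:173224458-173276533), stood at 100.2 and 90.2 CPM without LPS, 42.9 and 46.7 CPM in DMSO + LPS and 73.5 and 69.1 CPM at 3.2 µM. It measured 84.3 and 74.1 CPM at 10 µM and 82.4 and 75.2 CPM at 32 µM. The groups at 10 and 32 µM overlapped, and the 32/10 ratio had a 95% interval of 0.865 to 1.15. Most of its response was already present at 3.2 µM (log2 0.67 of 0.82 at 32 µM).

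Fblim1, a filamin-binding adaptor, stood at 7.51 and 7.79 CPM in DMSO + LPS, 11.6 and 12.0 CPM at 10 µM and 12.2 and 11.5 CPM at 32 µM (interval 0.907 to 1.11). Ank, a transporter of pyrophosphate and citrate, stood at 759 and 759 CPM, 1144 and 1142 CPM and 1218 and 1242 CPM under the same 3 conditions (interval 1.02 to 1.14). Havcr2, the inhibitory receptor TIM-3, stood at 114 and 106 CPM, 164 and 162 CPM and 186 and 191 CPM (interval 1.06 to 1.27). The groups at 10 and 32 µM did not overlap for Ank and Havcr2, although neither difference passed the adjusted test (adjusted p = 0.242 and 0.136). Ndrg2, a stress-responsive member of the NDRG family, was the least flat of the 9, from 97.4 and 92.3 CPM to 116 and 111 CPM (log2 0.26, adjusted p = 0.0425). Csf2rb2, Epb41l1, C130050O18Rik and Rin1 make up the remainder, with log2 ratios between 0.09 and 0.23 for the first 3.

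All 3 levelled genes that were lower were called higher with LPS, as were 259 of all 280 lower responding genes, again with the DMSO + LPS libraries in both calls. Sat1, which acetylates polyamines, stood at 348 and 354 CPM in DMSO + LPS, 229 and 252 CPM at 10 µM and 204 and 209.8 CPM at 32 µM (interval 0.789 to 0.937). Carhsp1, an RNA-binding protein, stood at 115 and 118 CPM, 83.6 and 83.4 CPM and 69.6 and 68.3 CPM, and passed the adjusted p at a step inside the bound (log2 -0.28, adjusted p = 0.0106). Arg2 was the flattest of the 3, at 20.7 and 21.7 CPM in DMSO + LPS, 13.3 and 14.4 CPM at 10 µM and 13.3 and 12.9 CPM at 32 µM (interval 0.813 to 1.10). None of the 12 levelled genes belonged to any of the gene lists.

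**Figure D4:**
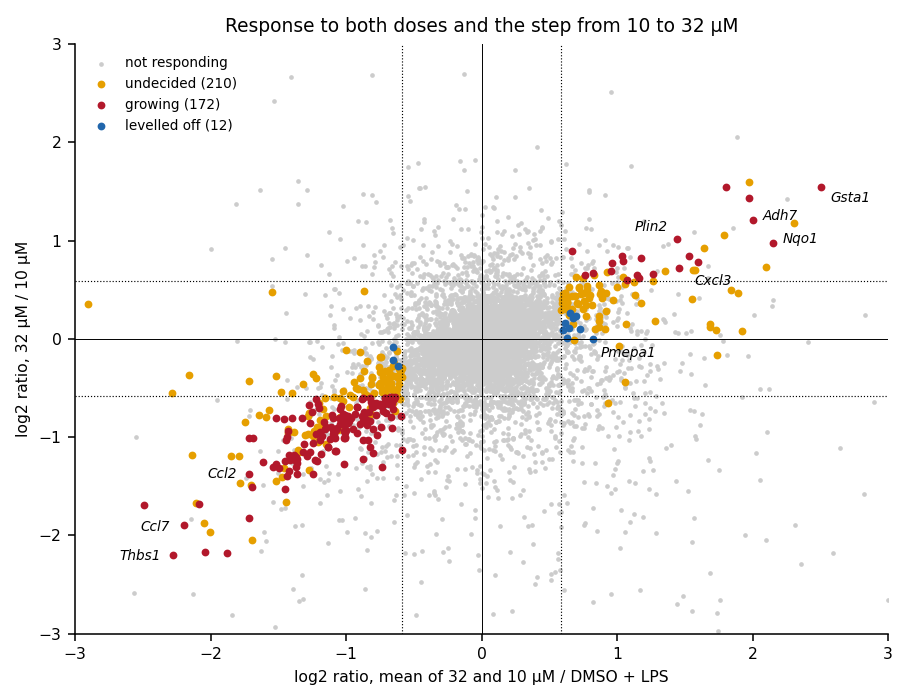
Each point is 1 tested gene, with the log2 ratio of the mean of 32 and 10 µM to DMSO + LPS on the horizontal axis, the log2 ratio of 32 to 10 µM on the vertical axis and the 1.5-fold bounds dotted. The 172 growing genes (red) lie in the lower left and upper right, the 12 levelled genes (blue) lie near 0 on the vertical axis, 210 are undecided (yellow, 1 of them beyond the axes), and gray points beyond the axes are not shown.

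In 11 further lists no gene was called between 32 and 10 µM, which for lists of 5 to 32 tested genes is near the 1.32% called over all genes: AP-1 and early response factors, ATF4 and amino acid response, cell division, endoplasmic reticulum chaperones, glycolysis, heat-shock chaperones, LXR targets, lysosome and autophagy, metallothioneins, sterol synthesis, and p53 and BCL2 family. Their median log2 ratios lay between -0.08 and 0.07. The interval lay inside 1.3-fold for 24 of the 25 lysosome genes and 12 of the 23 AP-1 genes, against 50.0% of all genes tested. Of 36 LPS receptors, signaling genes and feedback regulators, Tlr8 and Socs1 were called lower and the interval lay inside 1.3-fold for 28. Tlr8, a receptor for RNA, went from 2.51 and 2.59 CPM to 1.43 and 1.61 CPM (log2 -0.75, adjusted p = 0.0172). Socs1, a feedback inhibitor of JAK kinases, went from 12.4 and 10.0 CPM to 7.56 and 7.28 CPM (log2 -0.59, adjusted p = 0.0269). The Tlr8 call was lost when any 1 of the 4 libraries was left out, and the Socs1 call without replicate 1 at 10 µM, either library at 32 µM or either of DMSO + LPS. Of the 163 lower genes 99 were on none of the lists, and of the 24 higher genes 18.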

How the data were processed

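Per the paper's methods, RAW264.7 RNA was poly(A)-selected, made into directional libraries and run on 1 sequencer lane. The deposited values are the authors' raw counts per mouse Ensembl gene, and the submitters' processing notes name Trimmomatic, FastQC, STAR, DESeq2 and build mm10, with no versions. The counting tool and its use of strand are not given in the sources used here. Symbols came from GENCODE M21 for 42548 of 43432 identifiers, and the 884 without one held 0.0948% of counts. Total counts ranged from 45966803 to 58976377. At 5 CPM the smallest scaled library gave 226 counts, so counting error alone is 6.65%.

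Genes were filtered by filterByExpr (minimum count 10), scaled by TMM and fitted in edgeR 4.0.16 (R 4.3.3) with 1 mean per condition over all 10 libraries, which left 5 residual degrees of freedom. Standard errors were taken from the log2 ratio and F, and 95% intervals from the fit's t distribution. The edgeR fit was also run on simulated counts with known changes. The simulation gave every gene the same spread, so it does not show how the fit behaves on these libraries. Named genes were the 12 highest and lowest called ratios at a mean of at least 5 CPM, levelled genes, extremes of each list and genes in the paper's text. Genes outside this rule, such as Stat2, Irf7, Ifi35, Cpt1a and 2810030D12Rik, were chosen after their values were seen. Some items are not reported here. Gene lists, members and tests were chosen with earlier results of these data known. Alternatives were other scalings, filters, cutoffs and bounds, the replicate number, DESeq2 1.42.0, the likelihood ratio test, fits without rRNA features or with a short-transcript score (each library's median relative log2 CPM over 368 genes with transcripts under 1000 nt), and leaving out libraries. Pairs of libraries left out together were chosen after seeing the data.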

Additional observations from a re-analysis of the deposited data

How the results depend on the processing

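Leaving out 1 library at a time, with the library left alone in its condition given the spread of the other groups, called 139 to 257 genes (11 to 32 higher and 126 to 225 lower), and gave 11 to 21 growing higher genes, 7 to 18 levelled, 0 to 11 opposite and 134 to 259 undecided genes. The higher calls were 11 without replicate 1 at 10 µM and 13 without replicate 2 at 32 µM, the 11 opposite genes came without replicate 2 at 10 µM, and the undecided genes were 134 and 135 without either DMSO + LPS library. Without both replicates 1 at 10 and 3.2 µM, 122 genes were called (10 higher), with 9 growing higher, 7 levelled and 1 opposite. edgeR on the 4 libraries alone called 5 genes (0 higher and 5 lower). A 2-fold cutoff gave 63 (6 higher and 57 lower), no fold cutoff 391 (114 and 277) and unadjusted p 548 (108 and 440). With the short-transcript score 37 genes were higher. Levelled genes numbered 6 without the count filter, 5 by the likelihood ratio test, 4 within 1.2-fold and 57 within 1.5-fold, and undecided genes 106 at a mean of at least 5 CPM. The cause of these shifts was not tested. Single libraries were left out only at 32 µM, at 10 µM and in DMSO + LPS. The other scalings, DESeq2 and leaving out rRNA features gave 172 to 222 calls.

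With the replicate number as a block, 225 genes were called, 184 of them among the 187, and 1 gene was opposite. The calls with the block held 4 of the 7 tested markers of other cell types, all lower, against 0 without it. Deviations of same-numbered libraries correlated at 0.77 between the 2 doses and at 0.303 to 0.83 among the 4 conditions other than DMSO + LPS, and negatively between DMSO + LPS and each of these. The median absolute log2 difference was 0.091 and 0.0839 between same-numbered libraries of the 2 doses, against 0.129 and 0.108 within 10 and 32 µM. No label says that a number marks a shared culture or day, so whether the numbers pair the libraries is not known. Ccl4 was called with the block (log2 -0.67, adjusted p = 0.0161, against 3.06e-06 to 0.546 over its alternatives). Of 2179 values of named genes under the alternatives, 140 lost and 19 gained a call, 0 reversed a called direction, and 151 values of genes not called moved by more than 1 standard error. With 2 libraries a dose, depth limits low-count genes such as Ifnb1.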

Other observations

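The library at 10 µM with counts on markers of other cell types (replicate 1) held 1039 counts on Krt8, 451 on Epcam, 200 on Cdh1 and 160 on Col3a1, which mark epithelial and stromal cells. The origin of these counts was not tested. Replicate 1 at 3.2 µM held 341 counts over the 18 markers, and the other 8 libraries 32 to 55.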
